A study of Mus musculus with 4 samples.

Results

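DNA replication and S-phase genes were followed as a set of 39 genes named for their known roles, among the 37310 genes of the mouse annotation used. They encode the licensing factors that load the replicative helicase, the proteins that start it, the DNA polymerases and primase, the sliding clamp with its loader and the enzymes that finish the lagging strand, the enzymes that supply deoxynucleotides, and the cyclins and E2F factors of S-phase entry, with Uhrf1 and Slbp. The rule that names them uses these roles and no measured level. After genes with 2 counts or fewer over the 4 libraries were left out, 22214 genes remained, among them 38 of the 39. The exception was Fen1, the flap endonuclease, which is described with its counting limit further on.

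The libraries came from bone marrow of wild-type C57Bl/6 mice, male per the study's figure legends, that were 3 months old (mature) or 24 months old (elderly). There were 2 libraries per age, and the labels name no treatment. The study's methods describe pools of 3 or 4 mice per group, whereas the sample titles name single, numbered mice. The labels call the source whole bone marrow, whereas the study's methods describe cells sorted as Lin− (lacking Ter119, CD31 and CD45) and positive for LEPR, the leptin receptor, which marks the perivascular stromal and progenitor cells of the marrow. The sources do not say whether each library is a pool, or whether the libraries of an age share animals. The p-values here thus measure the spread between these libraries, which may be partly technical.

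Before S phase, the origin recognition complex, Cdc6 and Cdt1 load the Mcm2-7 helicase onto replication origins, and cyclin E with its kinase and the E2F factors open the way into DNA synthesis. Cdc45 and the GINS complex then switch the helicase on, the polymerase α-primase complex lays down primers, and polymerases δ and ε extend them, held on the template by PCNA. In adult marrow these genes are used by any dividing cell, above all by blood cell precursors, while the LEPR+ stromal cells divide rarely. In RNA from a population, more cells in S phase and more RNA per cell cannot be told apart.

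The promoters of many of these genes carry the E2F motif, and the sequences that bear it are shown because E2f2 and other members with the motif are described below. The window was 250 bases before to 50 bases after the start of each gene in RefSeq (build GRCm38.p6), and 32 of the 39 members had at least 1 window. Ccne2, Gins1, Gins2, Gins4, Mcm4, Pole and Prim2 were not matched. The motif was searched on both strands as TTTCCCGC, TTTCGCGC, TTTGCCGC or TTTGGCGC, words which can overlap one another, and the lines below show it, or its reverse complement, in capitals, 5′ to 3′ on the strand of the gene. Mcm5 (chr8:75109345-75109374, plus strand), Mcm6 (chr1:128359706-128359855, minus strand) and Orc1 (chr4:108579416-108579445, plus strand) have it upstream of the start. Mcm3 (chr1:20820275-20820304, minus strand), Cdt1 (chr8:122568035-122568064, plus strand) and E2f2 (chr4:136172294-136172323, plus strand) have it after the start.
Mcm5: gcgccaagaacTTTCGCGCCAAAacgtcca
Mcm6: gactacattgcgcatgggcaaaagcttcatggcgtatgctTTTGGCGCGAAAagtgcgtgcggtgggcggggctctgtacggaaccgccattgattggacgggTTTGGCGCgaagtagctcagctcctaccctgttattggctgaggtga
Orc1: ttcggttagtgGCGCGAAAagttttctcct
Mcm3: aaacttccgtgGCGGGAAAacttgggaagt
Cdt1: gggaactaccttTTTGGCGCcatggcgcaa
E2f2: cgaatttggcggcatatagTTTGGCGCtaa

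One of the E2F words was found in the windows of 15 of the 32 members (46.9%), against 704 of 27025 genes (2.60%) that had a window. In 5 members there were 2 or more matches. Of the 5 members that rose, 2 (Cdt1 and E2f2) had a match, and of the other 27 with a window, 13 (48.1%) had one. The CCAAT box, searched as CCAAT on both strands, was found in 19 of the 32 members (59.4%) and in 41.1% of genes. A match is a description of these letters and not a site shown to be used, and a window with no match says only that the letters are not in it.

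Between the ages, 5 of the 38 members tested rose in elderly libraries and 0 fell. The test was edgeR's quasi-likelihood test on counts per gene, with p-values adjusted by Benjamini-Hochberg over all 22214 genes and called at an adjusted p under 0.05. Among all genes tested, 1.94% were called higher and 0.423% lower. The 5 were E2f2, a transcription factor that drives S-phase genes, Cdt1 and Mcm2, which license origins, and Rrm1 and Rrm2, the large and small subunits of ribonucleotide reductase. DESeq2 called 6 members higher and 0 lower. The exact test with the dispersion of 0.2 that the study set, held to the same adjusted limit, called 0 in either direction. All 5 calls were thus lost, and that test called 179 genes higher and 29 lower in all. Without adjustment, 5 members passed the 0.05 limit in the exact test. The study's own limit, which also sets a fold change, names no adjustment and was not applied here. The common dispersion that edgeR estimated from these counts was 0.070. At an unadjusted p under 0.05 in the quasi-likelihood test there were 12 members higher and 1 lower of 38, against 2428 of 22214 genes in both directions.

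The whole list leaned upwards in elderly libraries but not evenly. The fitted log2 fold change, elderly over mature, was above 0 in 27 members and below 0 in 11, with a median of 0.36. Over all genes tested, 49.6% were above 0 and the median was -0.0059. The elderly libraries stood above the mature ones without overlap in 18 members, against 22.0% of all genes, and below them in 5, against 18.9%. In 15 members the ages overlapped. With 2 libraries per age, an exact permutation test cannot give a p under 0.333, so such separation was not tested for single genes.

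**Figure D1:**
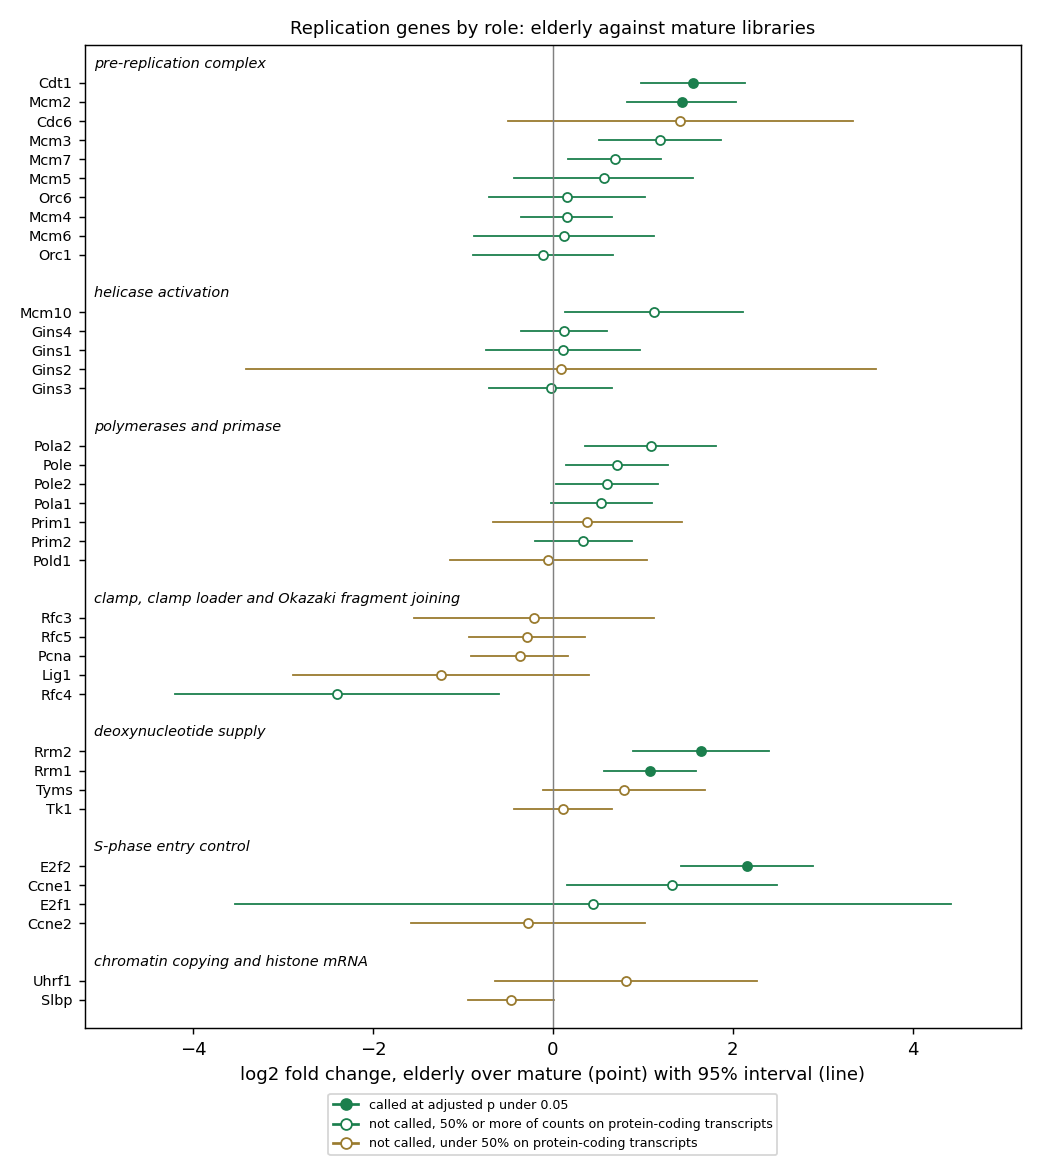
Fitted log2 fold change of the members, elderly over mature, by role, with 95% intervals from edgeR. The called members are E2f2, Cdt1, Mcm2, Rrm2 and Rrm1, between 1.08 and 2.16, whereas the 5 clamp, loader and ligase genes lie below 0 (Fen1, with no counts, and Cdc45, with 0 counts in elderly libraries, are left out).

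E2f2 rose most among the called members. The counts were 199 and 86 in mature replicates 1 and 2, and 594 and 866 in elderly replicates 1 and 2. As CPM, the count relative to the library's total after edgeR's TMM scaling, these were 17.2, 7.41, 53.6 and 56.4, so that both elderly libraries lay far above the mature ones. The mean was 12.3 ± 6.93 CPM in mature and 55.0 ± 1.99 CPM in elderly libraries (SD, n = 2). The log2 fold change was 2.16 (SE 0.34, adjusted p = 0.006 by edgeR's quasi-likelihood test). E2f2 was the 1 member called with a log2 fold change above 2, which 0.797% of all genes were, and 0 members were called below -2, against 0.144% of genes. It lies at chr4:135728309-135751972 on the plus strand (NCBI Build 37). E2f1, its close relative, had 1, 2, 1 and 4 counts, too few to compare.

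Cdt1, which brings the helicase to origins, had 212 and 173 counts in mature libraries and 654 and 607 in elderly libraries. Its mean was 16.6 ± 2.43 CPM in mature and 49.2 ± 13.8 CPM in elderly libraries (SD, n = 2). The libraries did not overlap, with a log2 fold change of 1.56 (SE 0.27, adjusted p = 0.00997 by edgeR's quasi-likelihood test). Mcm2, a helicase subunit, had 549 and 343 counts in mature and 1405 and 1251 in elderly libraries. Its mean rose from 38.5 ± 12.7 to 104 ± 32.0 CPM (SD, n = 2), with a log2 fold change of 1.43 (SE 0.28, adjusted p = 0.0196, edgeR). Cdt1 spans chr8:125091915-125097028 (plus strand) and Mcm2 chr6:88833469-88848774 (minus strand), NCBI Build 37.

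Ribonucleotide reductase, which makes the deoxynucleotides for DNA synthesis, rose in both subunits. Rrm1 had 1223 and 949 counts in mature and 2637 and 2438 in elderly libraries. Its mean was 93.8 ± 17.0 CPM in mature and 198 ± 55.9 CPM in elderly libraries (SD, n = 2), with a log2 fold change of 1.08 (SE 0.23, adjusted p = 0.033, edgeR). Rrm2, the subunit that cells make chiefly in S phase, had 236 and 120 counts in mature libraries and 677 and 545 in elderly libraries. Its mean was 15.4 ± 7.12 and 48.2 ± 18.1 CPM (SD, n = 2), with a log2 fold change of 1.65 (SE 0.35, adjusted p = 0.0286, edgeR). Elderly replicate 1 was the higher elderly library in CPM for both subunits, Cdt1 and Mcm2, whereas E2f2 was slightly higher in replicate 2. Rrm1 lies at chr7:109590209-109618285 and Rrm2 at chr12:25393106-25399011, both on the plus strand (NCBI Build 37).

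**Figure D2:**
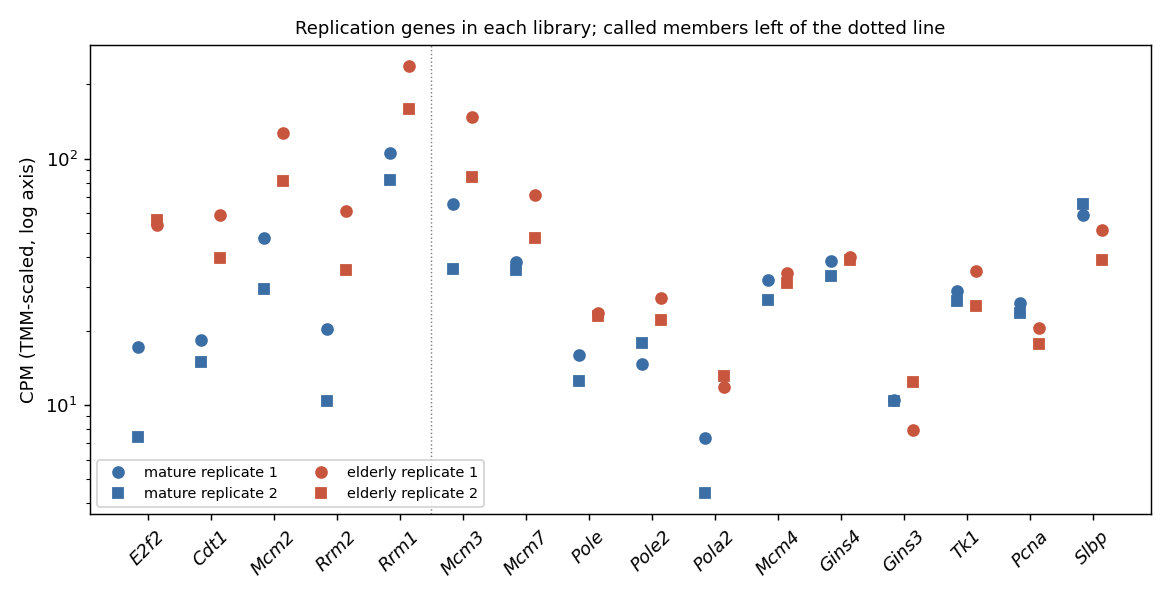
CPM after TMM scaling (vertical log axis) of 16 members in each of the 4 libraries, circles for replicate 1 and squares for replicate 2, with the called members left of the dotted line. In these both elderly libraries stand above both mature ones, as for Rrm1 at 105.8 and 81.8 CPM in mature and 237.7 and 158.7 CPM in elderly libraries.

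These calls rested on few libraries. Without mature replicate 2, 2 members were called (Cdt1 and E2f2). Without mature replicate 1, 6 were called: Rrm1 was lost (adjusted p = 0.0885, edgeR) and Ccne1 and Mcm3 were gained. With either elderly replicate left out, 0 members were called, and so were 0 of 21373 or 21390 genes in all, so that the absence of calls there is not particular to the members (unadjusted p under 0.05 in 5 members without elderly replicate 1 and in 7 without elderly replicate 2). The log2 fold changes of the 5 called members stayed above 0 in all of these fits.

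The pre-replication complex was the group of 10 in which 9 members had a log2 fold change above 0, 2 of them called, with a median of 0.63. Mcm3, a helicase subunit, had 754 and 412 counts in mature and 1629 and 1296 in elderly libraries and did not pass the test (log2 fold change 1.20, adjusted p = 0.0778, edgeR), though its libraries did not overlap. Mcm7 had 442 and 409 mature and 787 and 730 elderly counts, a log2 fold change of 0.69 (adjusted p = 0.237). Mcm4 had 372 and 310 mature and 380 and 481 elderly counts, with an interval of its log2 fold change from -0.35 to 0.66, so that a doubling lies outside this interval. Orc1, the largest subunit of the origin complex, was the member below 0, at -0.11. Mcm5, Mcm6, Orc6 and Cdc6, at 0.57, 0.13, 0.16 and 1.42, were thinly counted.

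Helicase activation held 6 members, of which 0 were called. The GINS subunits Gins1, Gins2, Gins3 and Gins4 had log2 fold changes of 0.11, 0.092, -0.026 and 0.13. Gins4, the best counted of them, had 444 and 388 counts in mature and 441 and 594 in elderly libraries. In CPM these were 38.4 and 33.4 against 39.8 and 38.7, which do not overlap. The means, 35.9 and 39.2 CPM, differed by less than the mature SD of 3.52. Mcm10, which loads the polymerase, was at 1.12 (adjusted p = 0.345, edgeR). Cdc45, the activator of the helicase, had 2 and 1 counts in mature and 0 and 0 in elderly libraries over the 75 bases of it that could be counted, so no fold is given.

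Among the 7 polymerase and primase genes 0 were called, 6 lay above 0 and 5 had both elderly libraries above both mature ones. Of all genes tested, 22.0% were separated in that direction. Pola2, the regulatory subunit of polymerase α, had the largest value at 1.09 (adjusted p = 0.156, edgeR), followed by Pole at 0.71, Pole2 at 0.60, Pola1, the catalytic subunit, at 0.54, Prim1 at 0.38 and Prim2 at 0.34. Pold1, the catalytic subunit of polymerase δ, stood at -0.051. Pold1 and Prim1 had 5.77% and 0% of their counts on protein-coding transcripts, so the δ subunit is not set against the others.

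The clamp and its associates had values of the other sign. All 5 members tested in this group lay below 0, with a median of -0.37. In 3 the elderly libraries were both under the mature ones, as they were in 18.9% of all genes tested. Pcna, the sliding clamp itself, had 299 and 273 counts in mature and 228 and 272 in elderly libraries, a log2 fold change of -0.37 (adjusted p = 0.667, edgeR). Rfc4, a loader subunit, had 27 and 18 counts against 7 and 2, with -2.40 (adjusted p = 0.22), and was the 1 member lower at an unadjusted p under 0.05. Rfc3 and Rfc5 were at -0.21 and -0.29, and Lig1, the ligase that joins Okazaki fragments, at -1.24. Rfc5 was above 0 when the transcript with the highest mean count alone was used, and Rfc3 and Lig1 were in some fits with 1 library left out. No member of this group was called lower, and what was counted of these genes is described below.

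Of the nucleotide suppliers besides Rrm1 and Rrm2, Tyms, which makes thymidylate, was at 0.79, and Tk1, the salvage kinase of S phase, had 337 and 306 mature and 387 and 389 elderly counts (0.11, adjusted p = 0.935, edgeR). Of the S-phase entry genes, Ccne1, cyclin E1, had 91 and 20 counts in mature and 170 and 137 in elderly libraries. Its log2 fold change was 1.33 (adjusted p = 0.344, edgeR), and mature replicate 1, at 7.87 CPM, lay close under elderly replicate 2, at 8.92 CPM. Ccne2 was at -0.27. Uhrf1, which keeps DNA methylation at the fork, was at 0.81, and Slbp, which binds histone mRNA and had 680, 760, 568 and 595 counts, was at -0.47 (adjusted p = 0.474).

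How much of each gene could be counted bears on these values. The counts were taken per transcript, and a read on bases that several transcripts share, on either strand, counted for none, so a gene with many overlapping transcripts was read through few bases. Fen1 had 6 such bases of its longest transcript of 2373 (0.253%) and 0 counts. Among the 7 members with 1 transcript and all bases countable (Mcm2, Mcm3, Cdt1, Gins3, Gins4, Pole2 and Rrm1) 3 were called, 6 lay above 0, and the median was 1.08. For all protein-coding genes of that kind 4.65% were called higher and 0.624% lower. Among the 31 members tested that have several transcripts, 2 were called and the median was 0.16.

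**Figure D3:**
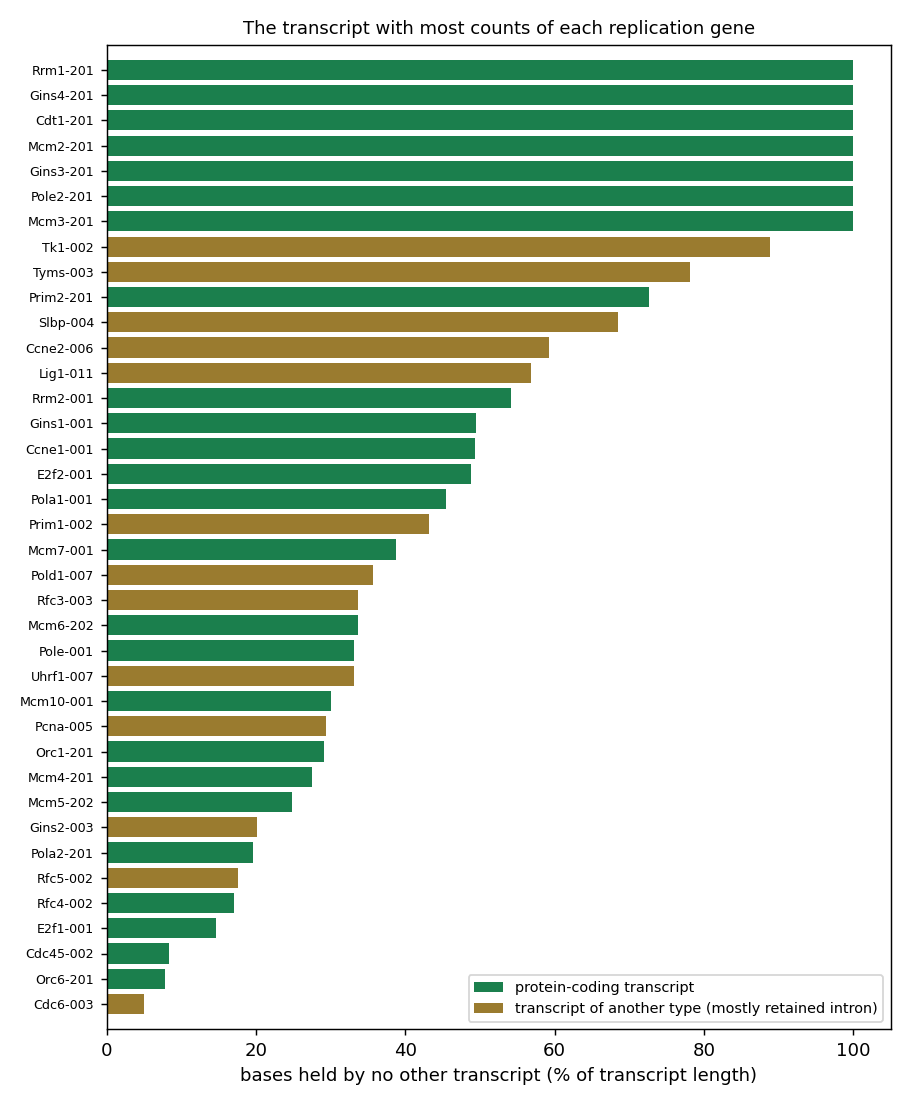
Percent of the bases of each member's transcript with most counts that no other transcript holds (horizontal bars), coloured by whether the transcript is protein-coding. The 7 members with 1 transcript reach 100%, among them Cdt1, Mcm2 and Rrm1, and 25 of the 38 bars are protein-coding transcripts, whereas Pcna, Tk1, Slbp and Lig1 are among those read through transcripts of another type.

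The transcripts that carried the counts also differed. In 25 members at least 50% of the counts fell on protein-coding transcripts: 5 were called, 21 lay above 0 and 4 below, and the median was 0.57. In the other 13, with under 50%, 0 were called, 6 lay above 0 and 7 below, and the median was -0.051. This split was not made over all genes, of which 1.94% were called higher and 0.423% lower. Pcna had 0.0933% of its counts on protein-coding transcripts and 84.0% on the retained-intron transcript Pcna-005, which does not encode the clamp. The pseudogene Pcna-ps2 had 91, 51, 54 and 76 counts, and whether it shares reads with Pcna was not tested. Slbp had 8.76%, Tk1 12.0%, Uhrf1 5.17% and Pold1 5.77%, and Lig1, Tyms, Prim1 and Rfc3 had 0%. Whether the ages differed in the selection of polyadenylated RNA is not known. What part such a difference would have in the values of these members was not tested. For Tk1, the coding transcript Tk1-001 was at 0.71 and Tk1-002 at 0.017 on the log2 scale. Per transcript, 6 of 110 member transcripts tested were called higher and 0 lower, including Mcm3-201 (adjusted p = 0.0252, edgeR), against 1.44% and 0.222% of all transcripts.

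The calls were all among the better counted members. Of 17 members with a mean of at least 10 CPM, 5 were called and the median was 0.60, whereas of 21 tested members under 10 CPM 0 were called and the median was 0.13. Among all protein-coding genes of at least 10 CPM, 4.00% were called higher and 0.951% lower. At the low end, E2f1, Gins2 and Cdc45 had at most 4 counts in a library, and 3 counts correspond to 0.195 to 0.270 CPM, so that a difference in these was not detectable at this depth.

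Levels between members are compared per kilobase of countable bases of the transcript with most counts, for members whose main transcript is protein-coding with at least 450 countable bases. In elderly libraries Rrm1 stood at 49.6 ± 14.0 and Mcm7 at 48.3 ± 13.7 CPM per kb (SD, n = 2), neighbours that did not differ beyond their spread. Rrm2 followed at 39.3 ± 15.6, Mcm3 at 38.7 ± 14.8, Mcm4 at 33.3 ± 2.12 and Mcm2 at 30.9 ± 9.50 CPM per kb. In mature libraries the order was led by Mcm4 at 29.9 ± 3.92, Mcm7 at 27.1 ± 1.03, Gins4 at 26.3 ± 2.58 and Rrm1 at 23.5 ± 4.25 CPM per kb. Outside this limit, the retained-intron transcript Pcna-005, at 76.6 ± 0.653 in mature and 58.2 ± 5.07 in elderly libraries, stood above all of these, and Orc6-201, over 130 countable bases, was at 28.9 ± 4.31 and 32.4 ± 6.17 CPM per kb. E2f2 went from 5.30 ± 2.97 to 23.7 ± 0.832 and Cdt1 from 7.60 ± 1.11 to 22.5 ± 6.29 CPM per kb.

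The helicase subunits, which assemble in a ring of 1 each, were not read evenly. Mcm5 and Mcm6 stood at 3.41 ± 0.0812 and 2.36 ± 0.661 CPM per kb in mature libraries, over 848 and 1465 countable bases of which 3 and 33 were coding, so these values read untranslated stretches of the transcript. Mcm2 and Mcm3 were read over their whole length, 3370 and 2991 bases, and Mcm4 over 986 bases. Of the other called members, Cdt1 and Rrm1 were read over their whole length, whereas E2f2-001 was read over 2314 of 4739 bases and Rrm2-001 over 1187 of 2193, most of them untranslated.

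**Figure D4:**
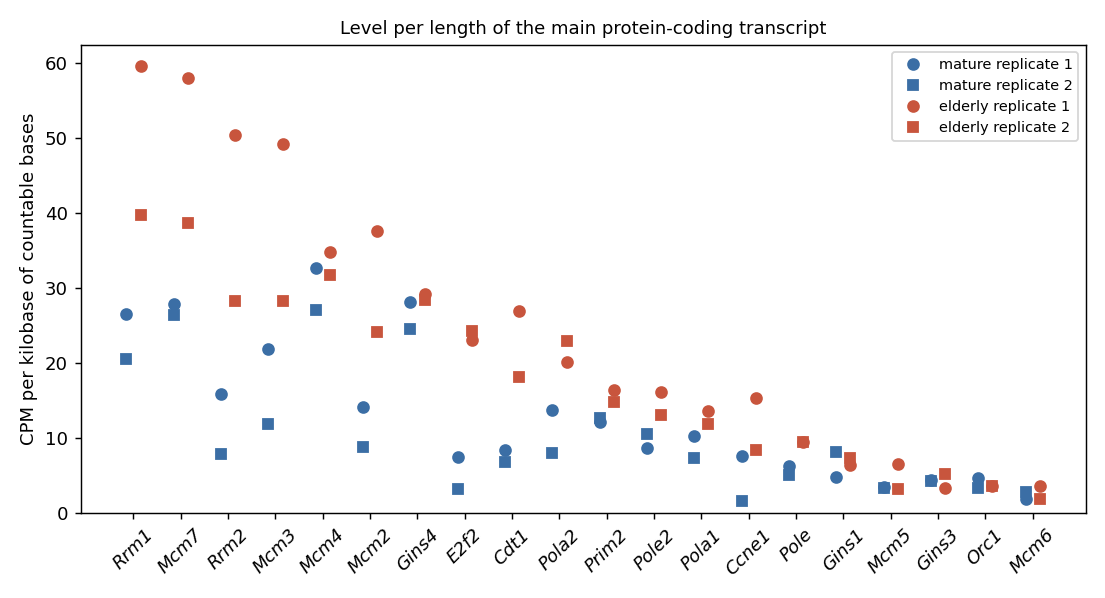
CPM per kilobase of countable bases (vertical axis) in each library, for the 20 members whose main transcript is protein-coding with at least 450 countable bases and whose ages' means sum to more than 5. Rrm1 goes from a mean of 23.5 to 49.6 and E2f2 from 5.30 to 23.7, and Mcm4 is at 29.9 and 33.3.

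Among all genes tested 1.94% were called higher, and among protein-coding genes of at least 10 CPM 4.00% were. Calls among the other replication genes and the E2F-Rb and S-phase kinase genes were few and were not tested against either share. These lists have no limit of 10 CPM, and Asf1b and Clspn lie under it, at means of 8.63 and 7.84 CPM. Of 48 other replication genes, 2 were called higher, Asf1b (histone chaperone, 1.82, adjusted p = 0.0112, edgeR) and Clspn (a checkpoint adaptor at the fork, 2.08, adjusted p = 0.0318), 0 lower, and the median was 0.25. Of 20 E2F-Rb and S-phase kinase genes, 1 was called, Ccnd1, cyclin D1 (1.60, adjusted p = 0.0107), 19 lay above 0, and the median was 0.34. Of 20 mitosis genes, 9 were called higher, with a median of 1.45, including Bub1b (1.80), Cenpe (1.43), Mki67 (1.78), Ccnb2 (1.48), Birc5 (1.97) and Kif11 (1.41). These values stand beside the members' own and were not tested against them.

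Markers of some other cells rose in the same libraries. For the counts that follow, 1.94% of all genes tested were called higher and 0.423% lower. The elderly libraries stood both above the mature ones in 22.0% of all genes and both below in 18.9%, and the rest overlapped. The members' CPM summed to 650 and 523 in mature and 1143 and 834 in elderly libraries. In 28 of 38 members mature replicate 1 was above mature replicate 2, and in 28 elderly replicate 1 was above elderly replicate 2. The 13 erythroid markers tested had all 13 above 0, 7 called, and summed CPM of 467, 211, 1574 and 1379, led by Slc4a1, Car2 and Hbb-b2. The α-globin genes Hba-a1 and Hba-a2, near-identical copies with at most 1 count in a library, were not tested. The 7 neutrophil precursor markers tested had 4 called and sums of 61.5, 46.6, 241 and 178, led by Elane, Ctsg and Prtn3. Gfi1 had 0 counts in every library over 59 countable bases. Of 7 mature neutrophil markers, led by S100a8, Ltf and Ngp, 5 were called higher, with sums of 2187, 1235, 4614 and 4483. Of 10 B-lineage progenitor markers tested, 1 was called (Rag1), and their sums of 781, 689, 534 and 606 were lower in elderly libraries. Most of that was Ebf1, which marrow stromal cells also express and which was not called (-0.54, adjusted p = 0.263, edgeR). Without Ebf1, a choice made after its values were seen, the sums turned to 49.1, 38.5, 117 and 72.6. The macrophage markers had 3 of 7 called higher (C1qa, C1qb and Mrc1) and 3 below 0. Their sums of 3533, 3311, 2008 and 3386 were mostly Vcam1, which is also in the LEPR stromal list. The plasma cell markers had 2 of 6 called higher (Igj and Prdm1) and 3 below 0, with Sdc1 at -0.53 and Xbp1 at -0.35. Their sums were 144.8, 119.7, 156.6 and 164.5. The endothelial markers had 1 of 6 called higher (Flt4) and 1 below 0 (Pecam1, -0.84), with sums of 24.3, 35.6, 43.6 and 40.5. The T cell markers, with 0 of 6 called, summed to 4.33, 6.29, 18.1 and 9.44. The megakaryocyte markers, with 0 of 6 called, overlapped between the ages in all 6, and the eosinophil markers, with 0 of 5 called, in all 5 (median -0.33). The osteoblast markers had 1 of 7 called higher (Col1a1) and 1 lower (Ibsp), and sums of 7046, 6419, 2149 and 4017. The LEPR stromal markers, Cxcl12, Lepr and Kitl the highest, had 0 of 10 called, all 10 below 0, and sums of 30050, 30650, 18720 and 26480. Ptprc, the gene for CD45, had 4, 1, 12 and 8 counts over the few bases it leaves countable. What part these cells have in the members' rise was not tested.

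**Figure D5:**
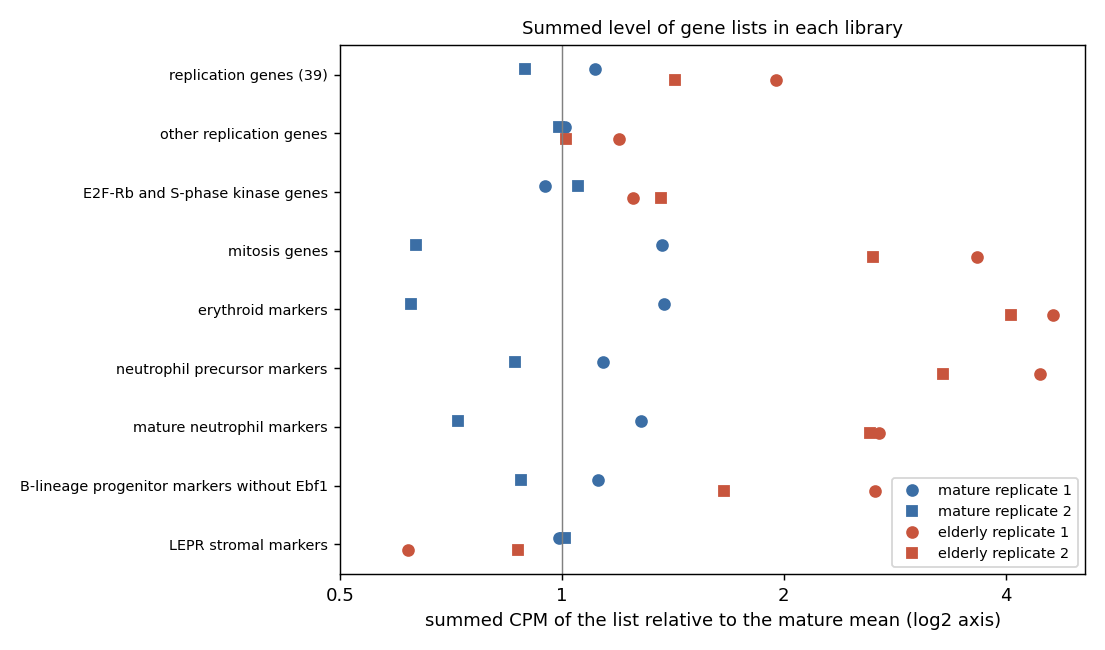
Summed CPM of the members, the other cell cycle lists and some marker lists in each library, divided by the mean of the mature libraries (log2 axis). The marker lists shown are erythroid, neutrophil precursor, mature neutrophil, B-lineage progenitor and LEPR stromal. Ebf1 was left out of the B-lineage list after its values were seen, and with it the ratio of mean sums was 0.776. In the marker lists of several genes not shown, this ratio ran from 0.458 (osteoblast) to 2.59 (T cell). The members reach 1.95 and 1.42 in elderly libraries, the mitosis genes 3.66 and 2.65, the erythroid markers 4.64 and 4.07, and the LEPR stromal markers 0.617 and 0.872.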

How the data were processed

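Bone marrow RNA, from Lin− LEPR+ cells per the study's methods, was analysed in 4 libraries, grouped by the age in the sample titles. Those methods describe selection of polyadenylated RNA, with some named samples made from total RNA instead. The name of such a sample gives an age in weeks that is close to the age of the mature mice. The sources do not say whether the mature libraries are among these exceptions. If they are, library preparation and age cannot be told apart. Per the labels and the study's methods, the authors used CutAdapt for the adapters, HISAT2 for mapping (NCBI Build 37) and featureCounts for counting. The values deposited are raw counts per Ensembl transcript, and neither the strand setting nor the handling of reads with several matches is given in the sources used here. The libraries held 11930137, 11730849, 10472117 and 15650518 counts. Transcripts were assigned to genes with GENCODE release M1 and 388 of them were not matched. The 25621 transcripts with no base of their own all had 0 counts. Counts were summed per gene, genes with more than 2 counts were kept, and edgeR 4.0.16 (TMM, prior count 0.125, quasi-likelihood test, 2-sided, no covariate) was run in R 4.3.3. DESeq2 1.42.0 and the exact test with a dispersion of 0.2 that the study used were alternatives, both called at the same adjusted limit. Intervals are 95% limits.

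Every member is accounted for. Called members are given with each library's counts, and others by range, with the 6 of highest CPM named. In the other gene lists the called genes are named, at most 6 by smallest adjusted p, and in the marker lists the 3 of highest CPM and any at 0. The rule for the members uses roles and no measured level, but the members and lists were chosen with earlier results of these data known. The quasi-likelihood test, with and without the replicate block, DESeq2 and the exact test were run on simulated counts with known changes. The outcome is not reported here.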

Additional observations from a re-analysis of the deposited data

How the results depend on the processing

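Of the members, 0 were called lower under every alternative run, whereas the number called higher, 5, depended on the fit. It was 6 with DESeq2, library size alone, protein-coding genes only, the transcript with the highest mean count and, chosen after seeing the data, protein-coding transcripts only, and 5 with filterByExpr, the robust fit and TMM without immunoglobulin, hemoglobin and histone genes. It was 0 with the exact test at a dispersion of 0.2, 8 without a filter, 2 at an adjusted p under 0.01 and 1 with a log2 fold change over 2 required as well, and 0 to 6 with 1 library left out. The median of the members, 0.36, was 0.49 over protein-coding transcripts only and 0.29 to 0.48 with 1 library left out. Over all genes, 430 higher and 94 lower calls became 866 and 218 without a filter, 691 and 188 with the robust fit, and 179 and 29 with the exact test, and DESeq2 gave 553 and 153.

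The labels share replicate numbers 1 and 2 between the ages, but nothing says that they mark a shared batch, and the correlation of the deviations of same-numbered libraries was 0.045. With the replicate block, 8 members were called higher and 962 and 314 genes in all. Under the block, Ccne1, Mcm3 and Pola2 joined the 5 members.

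None of the 5 called members turned its direction under any alternative run. Members near 0 did. With other choices, Gins2 was at -0.19 over protein-coding transcripts only, Gins3 at 0.022 and Pold1 at 0.014 with library size alone, Pold1 at 0.14, Rfc5 at 0.13 and Tk1 at -0.055 for the transcript with the highest mean count, and Pold1 at 1.86 over protein-coding transcripts only. With 1 library left out, the range was -0.31 to 0.094 for Orc1, -0.017 to 0.35 for Orc6, -0.00083 to 0.30 for Mcm4, -0.021 to 1.02 for Mcm5, -0.40 to 0.55 for Mcm6, -0.10 to 0.36 for Gins1, -0.56 to 1.29 for Gins2, -0.39 to 0.28 for Gins3, -0.069 to 1.01 for Prim1, -0.27 to 0.18 for Pold1, -1.13 to 0.40 for Rfc3, -2.14 to 0.076 for Lig1, -0.11 to 0.33 for Tk1, -0.72 to 0.071 for Ccne2 and -0.47 to 0.98 for E2f1. The cause of these changes was not tested.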
